A study of Rattus norvegicus with 17 samples.

Results

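Small noncoding RNA genes of rat gastrocnemius, a hindlimb muscle, were followed across 3 groups of animals. The genes were the named entries of the deposited count table annotated as ribozyme, snRNA, snoRNA, scaRNA, misc_RNA or rRNA whose raw counts summed to at least 200 over the 17 libraries. That rule chose 61 of 32883 entries, made up of 2 ribozymes, 7 snRNAs, 24 snoRNAs, 3 scaRNAs, 24 misc_RNAs and 1 rRNA. Members were thus chosen by their summed raw count, which is given here only as a description. Just inside the threshold were SNORD24 with 202 counts, a 7SK entry with 204 and the clone-named snoRNA AABR07065593.1 with 210, and just outside were a Metazoa_SRP entry with 189, a 7SK entry with 177 and AC113837.6 with 159. The 6 biotypes held 4072 entries in all, of which 343 carried no gene name, and 3077 of the 3729 named ones had no count in any library. The 61 members have 32 distinct names, because 37 of them share a name: 13 entries are called 7SK, 7 Metazoa_SRP, 5 U1 and 4 SNORA73. Entries with 1 name are numbered here by falling count sum, and since near-identical copies may have split their reads, the values of each such entry are uncertain.

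Chemotherapy samples came from tumor-bearing rats given chemotherapy (7 libraries, counted as 6 samples), tumor samples from tumor-bearing rats without it (n = 5), and healthy samples from rats with no tumor (n = 5). All rats were on a control diet, per the sample titles. The labels name neither the tumor, the agent, the strain nor the age, and do not state whether any library pooled animals, so p-values measure the spread between these samples. Total RNA was depleted of ribosomal RNA before stranded libraries were made, and the labels name no enrichment for short RNAs.

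These RNAs are short, abundant and untranslated, and most act as the core of a protein complex. Rpph1 is the catalytic RNA of RNase P, which trims tRNA precursors, and the RNase MRP RNA acts on ribosomal RNA precursors. 7SK RNA holds the transcription elongation factor P-TEFb in an inactive complex, the signal recognition particle (SRP) RNA carries nascent secretory and membrane proteins to the endoplasmic reticulum, and U1, U2 and U4 are parts of the spliceosome. Box H/ACA snoRNAs (SNORA) guide pseudouridylation and box C/D snoRNAs (SNORD) guide ribose methylation of ribosomal RNA, while scaRNAs guide the same changes on spliceosomal RNAs in Cajal bodies. RNase P, RNase MRP, 7SK, SRP, Y, vault and 5S RNAs are made by RNA polymerase III from genes of their own, whereas most mammalian snoRNAs are cut out of the introns of host genes. In muscle, ribosome production is known to rise with fibre growth and to fall in wasting.

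Total counts on named genes ran from 3020821 to 19965891 per sample. Of 8 muscle fibre markers, 6 were found, and their summed level was 166417 to 206408 CPM (counts relative to the TMM-scaled library total) in chemotherapy, 165719.9 to 227652 CPM in tumor and 202109 to 301006 CPM in healthy samples. The neuronal markers Snap25 and Syt1 summed to at most 0.764 CPM in any sample, and the 4 T and B cell markers to 0 to 19.96 CPM in chemotherapy, 0 to 1.04 CPM in tumor and 0 to 0.669 CPM in healthy samples. The 19.96 CPM came from 1 chemotherapy sample, which had the highest value of each of the 4 markers. Markers of further cell types had ranges that differed between groups. The 2 adipocyte markers summed to 10.6 to 151 CPM in chemotherapy, 8.1 to 83.1 CPM in tumor and 3.78 to 21.7 CPM in healthy samples. The 3 red blood cell markers summed to 74.8 to 589 CPM in chemotherapy, 144 to 338 CPM in tumor and 267 to 859.7 CPM in healthy samples. The 4 fibroblast markers summed to 2167 to 10727 CPM in chemotherapy, 2719.8 to 12887 CPM in tumor and 4439 to 14155 CPM in healthy samples. Among them Col3a1 averaged 1084 CPM in chemotherapy, 1266 CPM in tumor and 2695 CPM in healthy samples. In the same order of groups Col1a1 averaged 2790, 5443 and 5751 CPM, Dcn 613, 714 and 686 CPM, and Pdgfra 58.0, 76.3 and 93.9 CPM. For 4 macrophage markers the range was 106 to 216 CPM in chemotherapy, 92.3 to 175 CPM in tumor and 116 to 248 CPM in healthy samples, and for 2 of 3 endothelial markers found it was 60.2 to 80.2 CPM, 75.7 to 106 CPM and 71.6 to 109 CPM in the same groups. The part of these differences in the results was not tested. Healthy libraries 1, 3 and 4 stood apart from healthy libraries 2 and 5 for most members: library 4 was the highest healthy sample in 42 of the 61 and library 2 the lowest in 42. The alignment names in the table end in 1 of 2 suffixes whose meaning is not given: MB on healthy libraries 1 to 4 and on chemotherapy library 11 (libraries 11 and 12 summed), VM on healthy library 5, on all 5 tumor libraries and on the other 5 chemotherapy samples. Suffix and group therefore overlap, and the counts of members for each comparison are also given without healthy libraries 1, 3 and 4, with suffix as a term, and for the VM samples alone, which hold 1 healthy sample. Leaving out libraries 1, 3 and 4 keeps only healthy libraries 2 and 5. Since the 3 left out were high in most members, a smaller difference from healthy muscle follows from that choice.

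The 61 entries together took a smaller share of the library in chemotherapy than in healthy muscle, with tumor samples between. Their share of named counts was 0.874% ± 0.274 (SD, n = 6) in chemotherapy, 1.25% ± 0.599 (n = 5) in tumor and 2.15% ± 1.09 (n = 5) in healthy samples. By sample it was 0.607%, 0.775% and 1.31% as the lowest, median and highest of the chemotherapy samples, 0.737%, 0.972%, 2.1%, 0.778% and 1.64% in tumor libraries 6 to 10, and 2.57%, 0.695%, 2.45%, 3.55% and 1.5% in healthy libraries 1 to 5. Healthy library 2 lay inside the chemotherapy range, and the highest chemotherapy sample was library 11, which carries the MB suffix of 4 healthy libraries. Among the VM samples alone the share averaged 0.788% in 5 chemotherapy samples and 1.25% in 5 tumor samples, and was 1.5% in the single healthy one. Rpph1 held about as many counts as all other members together. Without it the share was 0.432% in chemotherapy, 0.61% in tumor and 0.982% in healthy samples. The 2 ribozymes took 0.533% ± 0.21 of counts in chemotherapy and 1.39% ± 0.735 in healthy samples, and the misc_RNAs 0.262% ± 0.0571 and 0.631% ± 0.314. SnRNAs differed least, with 0.0243% ± 0.00416 in chemotherapy and 0.0341% ± 0.0106 in healthy samples. Entries of the same biotypes outside the members did not all follow this order. Those without a name took 0.132% in chemotherapy, 0.169% in tumor and 0.243% in healthy samples, while named ones under 200 counts took 0.00763%, 0.00782% and 0.00779% in the same groups. In bulk muscle, fewer cells of a type and less RNA per cell cannot be told apart.

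**Figure D1:**
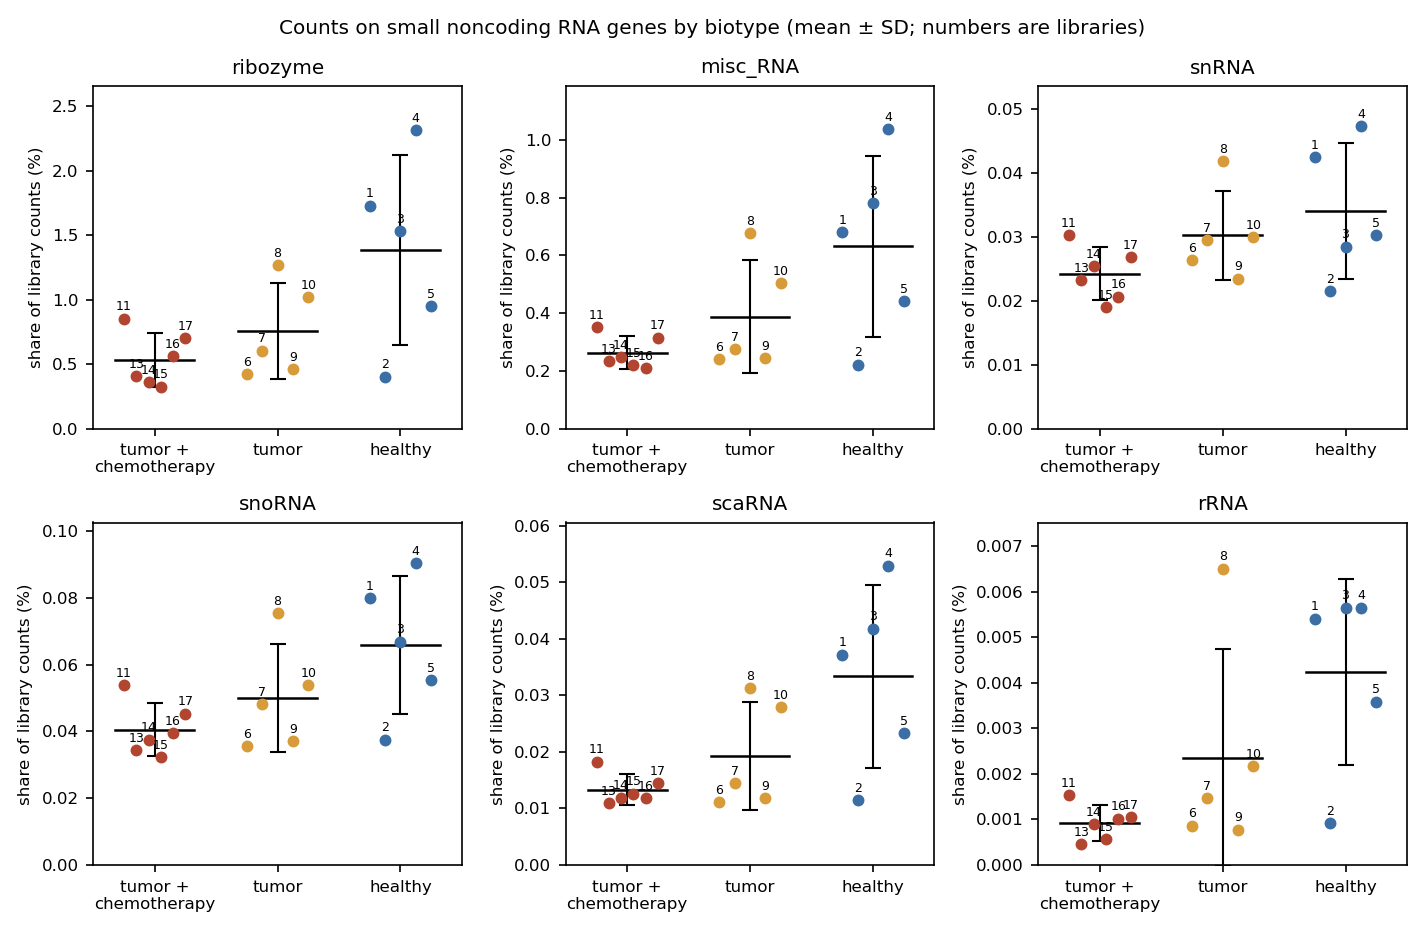
Share of each sample's named counts (%, y axis) on the entries of each of the 6 biotypes, in chemotherapy (n = 6), tumor (n = 5) and healthy samples (n = 5). Points are samples with their library number, lines and bars are the mean ± SD; healthy libraries 1, 3 and 4 are high and healthy library 2 is low in most panels, and tumor library 8 is the highest tumor sample in every panel.

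Gene by gene, 24 of the 60 members tested were lower in chemotherapy than in healthy muscle at an adjusted p below 0.05 and none were higher (edgeR's quasi-likelihood test, Benjamini-Hochberg over 11856 genes). Over all genes tested, 6.41% were called lower and 7.30% higher in the same comparison. The members' median difference was -1.16 on the log2 scale against -0.02 over all genes, and 56 of 60 had a negative fold change against 51.2% of all genes. At an unadjusted p below 0.05, 44 members were lower (17.5% of all genes) and 2 were higher (18.9%), and DESeq2 and limma-voom each called 1 member higher. Of the 40 members that reach 200 counts in the 12 tumor-bearing libraries by themselves, 21 were among the 24 called, and 3 came from the 20 tested members that do not. Those 20 passed the count rule only with their healthy counts, which can favour a negative difference. The median and the numbers of lower and negative members include them. Only 3 members had chemotherapy and healthy groups that did not overlap (1.97% of all genes lower, and 0 members against 2.02% of all genes higher): SNORA63, 7SK entry 3 and Metazoa_SRP entry 7, which were named after their values were seen. The 24 calls fell to 0 in 4 other fits, namely without healthy libraries 1, 3 and 4, with suffix as a term, in the VM samples alone and with 1 surrogate variable, and in each of these fits 0 of all genes were called lower. Leaving out single samples gave 0 calls without healthy library 1, 3 or 4 or chemotherapy library 13, 14 or 15, 12 without chemotherapy library 16, where 2.27% of all genes were called lower, and 43 without healthy library 2, where 14.8% were. In the single-sample fits with 0 calls, 30 to 43 members were still lower at an unadjusted p below 0.05, against 12.4% to 15.2% of all genes. The share of all genes called in those fits is not given here, so their 0 calls are not a result about the members alone. With 1 surrogate variable the 24 had fold changes from -1.07 to 0.10 (median -0.18), and 21 of them were negative. The other 3 were Rpph1, RNase_MRP and AABR07072025.1. With suffix as a term they ran from -1.92 to -0.40 (median -1.07), and in the VM samples, with 1 healthy sample, from -2.19 to -0.35 (median -1.16). Without healthy libraries 1, 3 and 4, 23 of the 24 could be fitted and ran from -1.30 to -0.19 (median -0.55). The 44 members lower at an unadjusted p below 0.05 became 18 with suffix as a term (4.28% of all genes), 11 in the VM samples (3.80%), 1 without healthy libraries 1, 3 and 4 (2.29%) and 1 with 1 surrogate variable (2.45%).

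Between tumor and healthy muscle 0 members were called in either direction, and 0 of all genes were called (0% higher, 0% lower), with edgeR, DESeq2 and limma-voom alike for the members. At an unadjusted p below 0.05, 21 members were lower (9.12% of all genes) and 0 were higher (8.88%). The median member difference was -0.67 on the log2 scale against 0.01 over all genes, and 55 of 60 were negative against 49.0% of all genes. These figures too include the 20 members that passed the count rule only with their healthy counts. The median was 0.07 without healthy libraries 1, 3 and 4, -0.12 with suffix as a term and -0.13 in the VM samples alone. Negative fold changes then numbered 27 of 59 (48.6% of all genes), 38 of 60 (46.9%) and 39 of 61 (45.5%) in the same fits. Members lower at an unadjusted p below 0.05 numbered 1 without healthy libraries 1, 3 and 4 (0.816% of all genes), 0 with suffix as a term (0.734%) and 0 in the VM samples (0.953%), and none was called in these fits. The smallest adjusted p among members was 0.211. Leaving out healthy library 2 gave 6 members called lower, in a fit that called 2.16% of all genes lower. Between chemotherapy and tumor muscle 0 members were called, again with 0% of all genes in either direction by edgeR, and 0 members by DESeq2 and limma-voom. Here 3 members were lower at an unadjusted p below 0.05 (3.81% of all genes) and 0 were higher (1.97%), 52 of 60 had a negative fold change against 49.4% of all genes, and the median member difference was -0.41 against 0.004 over all genes. Those lower at an unadjusted p below 0.05 numbered 7 without healthy libraries 1, 3 and 4 (4.28% of all genes), 15 with suffix as a term (6.59%) and 18 in the VM samples (7.69%), again with none called, and negative fold changes numbered 51 of 59 (48.8% of all genes), 54 of 60 (50.3%) and 52 of 61 (50.3%) in those fits. The 2 comparisons with healthy muscle share the healthy samples, and those with tumor muscle share the tumor samples, so their values are not independent of one another.

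**Figure D2:**
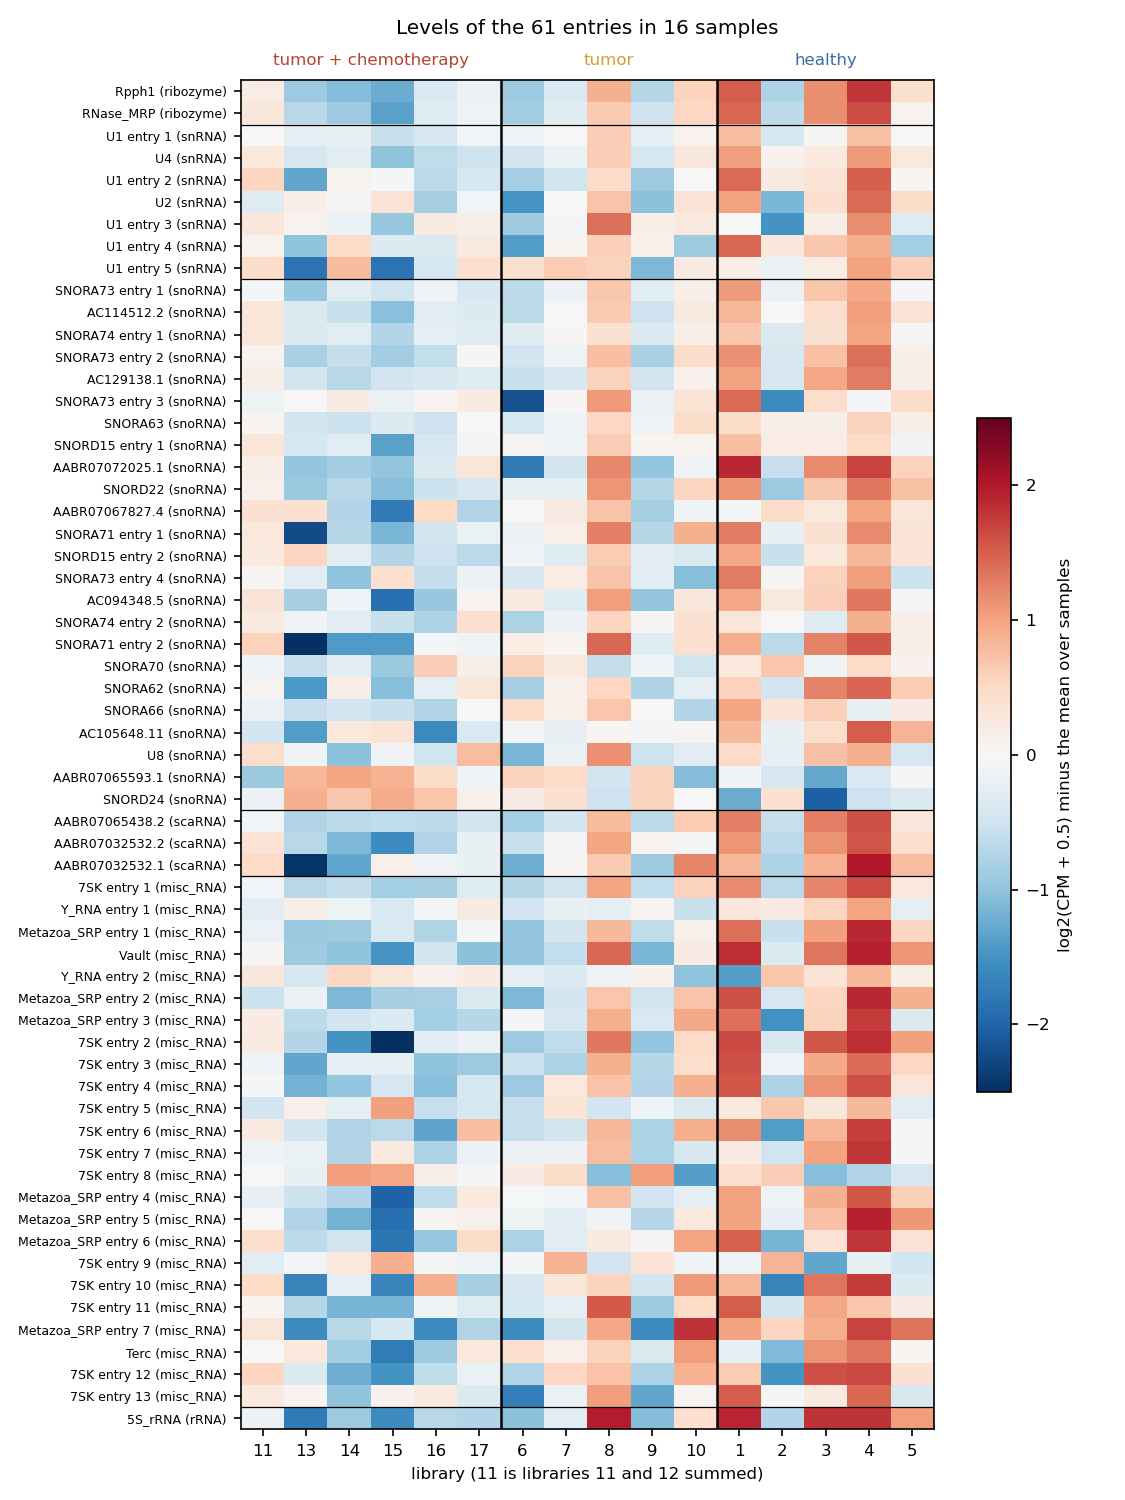
Level of each of the 61 entries (rows, by biotype) in the 16 samples (columns, by group), as log2(CPM + 0.5) minus the entry's mean over samples. Healthy libraries 1, 3 and 4 and tumor library 8 are red in most rows, and healthy library 2 and chemotherapy library 15 are blue in most rows.

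**Figure D3:**
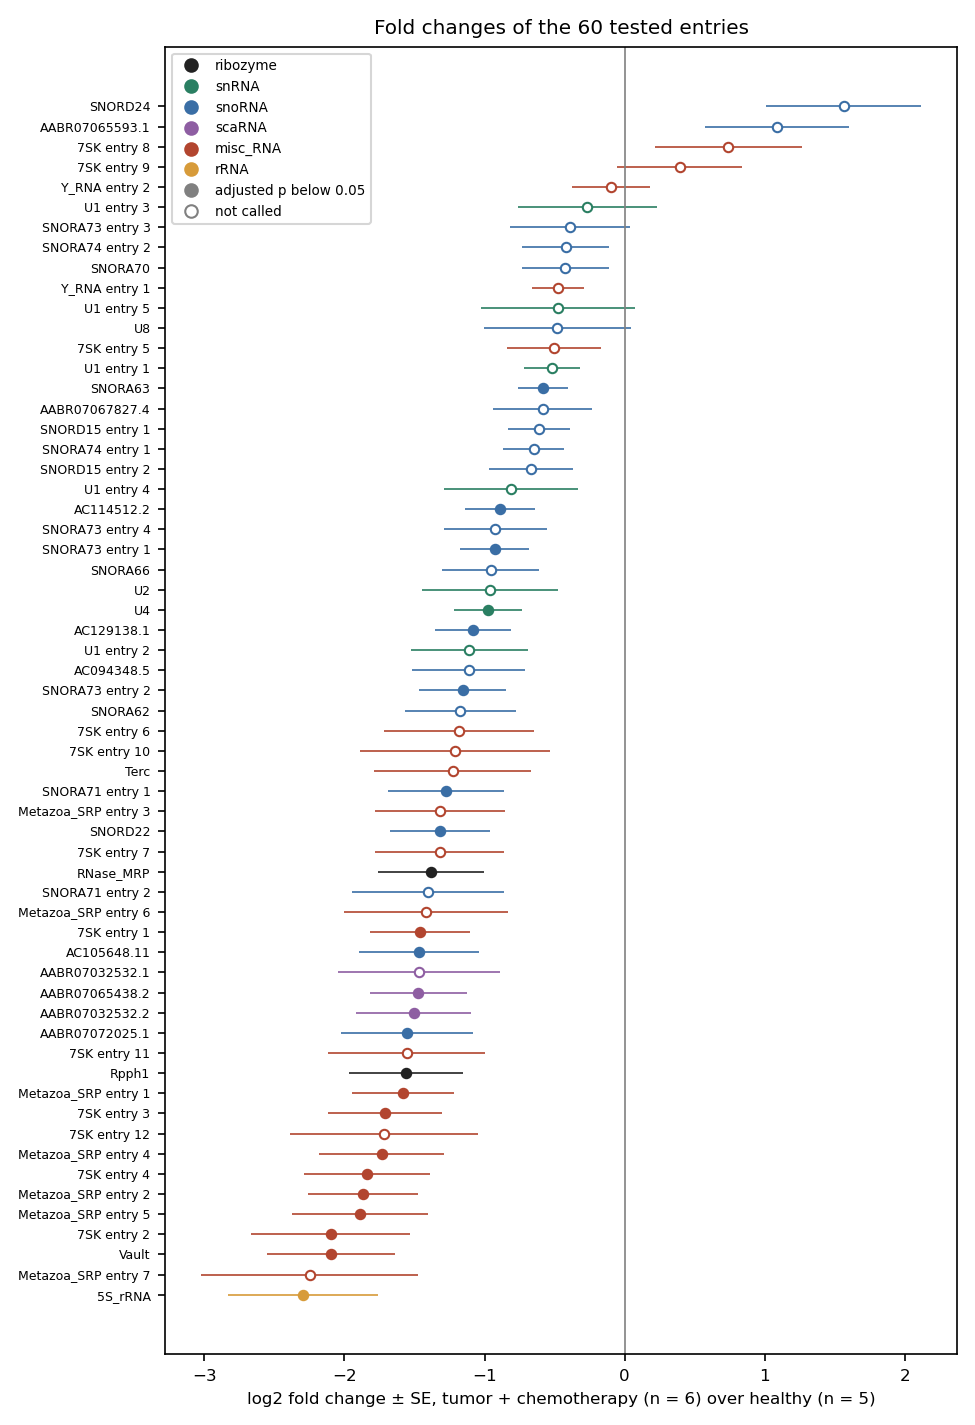
Log2 fold change with SE (x axis) of each tested entry in chemotherapy (n = 6) over healthy samples (n = 5), sorted, coloured by biotype. Filled circles are the 24 entries with an adjusted p below 0.05, all below 0; 4 entries lie above 0.

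Both ribozyme RNAs were lower in chemotherapy than in healthy muscle. Rpph1 was measured at 2578, 3951 and 6867 CPM as the lowest, median and highest of the 6 chemotherapy samples, 3246, 4660.0, 11208, 3717 and 8852 CPM in tumor libraries 6 to 10, and 17264, 3552, 13534, 20920.0 and 8029.5 CPM in healthy libraries 1 to 5. Healthy library 2 was as low as the chemotherapy samples, and tumor libraries 8 and 10 were as high as healthy library 5. Its difference between chemotherapy and healthy muscle was -1.56 ± 0.41 (log2 ± SE, adjusted p = 0.0301), and between tumor and healthy muscle -1.0 ± 0.43 (log2 ± SE, adjusted p = 0.251). RNase_MRP stood at 468, 843 and 1436 CPM as the lowest, median and highest of the 6 chemotherapy samples, 644, 955, 1875, 825 and 1687 CPM in tumor libraries 6 to 10, and 3189.8, 752, 2656, 3657 and 1265 CPM in healthy libraries 1 to 5. The same samples were high and low, and the groups overlapped through healthy libraries 2 and 5. Its difference was -1.38 ± 0.38 (log2 ± SE, adjusted p = 0.0325) in chemotherapy over healthy muscle. Without healthy libraries 1, 3 and 4 the Rpph1 difference was -0.43, and with 1 surrogate variable it was 0.03, against 0.10 for RNase_MRP.

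The promoter windows that bear on both ribozymes are shown because their counts moved together: Rpph1 had 4.4 to 5.51 counts for each RNase_MRP count in chemotherapy, 4.5 to 5.98 in tumor and 4.73 to 6.35 in healthy samples. In RefSeq's GRCr8 assembly the Rpph1 entry overlaps the window around the start of Parp2, which encodes a DNA-repair poly(ADP-ribose) polymerase, and in human and mouse the RNase MRP gene adjoins Ccdc107. RefSeq's table gives that Rpph1 entry the biotype RNase_MRP_RNA and the synonym Rmrp, so which of the 2 ribozymes its annotation describes is uncertain, and the entry is used here for its position under the symbol Rpph1. The windows run from 250 bases before to 50 after each gene's start, and capitals mark the octamer ATGCAAAT or its reverse complement ATTTGCAT, searched on both strands. It is an element of many promoters of small nuclear RNA type and is bound by POU factors. It stood in 595 of 33469 RefSeq windows of this length, or 1.78%. A match is a description and does not show binding.
Parp2 (chr15:26507409-26507708, plus strand, bases 1 to 80 lie in the Rpph1 entry): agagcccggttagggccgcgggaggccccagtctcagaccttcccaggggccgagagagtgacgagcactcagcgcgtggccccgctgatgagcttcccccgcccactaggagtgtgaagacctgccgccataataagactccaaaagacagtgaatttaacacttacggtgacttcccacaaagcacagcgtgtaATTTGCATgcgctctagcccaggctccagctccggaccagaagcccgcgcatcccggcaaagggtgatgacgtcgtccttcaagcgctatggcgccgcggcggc
Ccdc107 (chr5:62545100-62545399, plus strand): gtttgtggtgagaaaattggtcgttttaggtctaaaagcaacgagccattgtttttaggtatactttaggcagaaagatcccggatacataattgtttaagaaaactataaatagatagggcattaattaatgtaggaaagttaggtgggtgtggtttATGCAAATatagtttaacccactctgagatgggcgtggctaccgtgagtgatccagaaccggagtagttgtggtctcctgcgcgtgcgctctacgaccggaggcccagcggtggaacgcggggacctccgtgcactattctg
The octamer ends 46 bases before the Parp2 start and 84 bases before the Ccdc107 start. Parp2 averaged 9.57 ± 1.61 CPM in chemotherapy, 16.2 ± 3.97 CPM in tumor and 17 ± 13.3 CPM in healthy samples, with 40.6 CPM in healthy library 4. Its difference in chemotherapy over healthy muscle was -0.88 ± 0.33 (log2 ± SE, adjusted p = 0.0661), and because it overlaps Rpph1 and the use of strand in counting is not given in the sources used here, its value is uncertain. Ccdc107, a gene of little-known function, averaged 14.1 ± 2.79 CPM in chemotherapy, 12.1 ± 2.16 CPM in tumor and 10.1 ± 2.28 CPM in healthy samples, a difference of 0.48 ± 0.19 (log2 ± SE, adjusted p = 0.0767). Neither neighbouring gene was called.

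Of the 13 entries named 7SK, 12 were tested, 4 were called lower in chemotherapy than in healthy muscle and none were called higher. Entry 1, which holds nearly all 7SK counts, was measured at 1885, 2161 and 3214 CPM as the lowest, median and highest of the 6 chemotherapy samples, 2058, 2378, 6679.6, 2196 and 5001 CPM in tumor libraries 6 to 10, and 7654, 2128, 7875, 10429 and 4058 CPM in healthy libraries 1 to 5. Every healthy sample but library 2 was higher than every chemotherapy sample. Its difference was -1.46 ± 0.36 (log2 ± SE, adjusted p = 0.0279) over healthy muscle in the chemotherapy group. Tumor over healthy it was -0.81 ± 0.37 (log2 ± SE, adjusted p = 0.271). Entry 2 fell most of the 4, by 2.1 ± 0.57 (log2 ± SE, adjusted p = 0.0308) in chemotherapy relative to healthy samples, at 1.41 ± 1.05 CPM in chemotherapy, 2.68 ± 2.44 CPM in tumor and 6.6 ± 3.21 CPM in healthy samples. Entries 3 and 4, named after their values were seen, had differences of -1.71 and -1.84. The 12 tested entries ranged from -2.10 to 0.74 (median -1.39) and 2 of them had positive fold changes, entries 8 and 9. Entries 7 and 9 to 12 passed the count rule only with their healthy counts.

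The copies kept different proportions to entry 1 within the libraries. Entry 3 had 0.433 to 1.32 counts per 1000 counts of entry 1 in chemotherapy, 0.641 to 0.907 in tumor and 0.777 to 1.31 in healthy samples. The proportion of entry 8 was 0.669 to 2.48 in chemotherapy, 0.104 to 2.24 in tumor and 0.0971 to 1.68 in healthy samples. Entries 8, 9 and 5 differed by 25.5, 35.4 and 11.6 times between the highest and lowest of the 16 samples, and entries 3 and 4 by 3.05 and 3.24 times. Entries 6, 7 and 11 differed by 5.94, 4.78 and 5.10 times. Entries 2, 10, 12 and 13 had no count in at least 1 sample, so no such figure exists for them. The counts behind these proportions are small, with 3 to 48 per library for entry 8. These are ratios of counts on copies that the table does not tell apart by position, and the entries compared here were chosen after their values were seen.

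SRP RNA was lower as well: of 7 Metazoa_SRP entries, 4 were called lower in chemotherapy than in healthy muscle, and the 7 ranged from -2.25 to -1.32 (median -1.73). Entries 4 to 7 passed the count rule only with their healthy counts, which can favour a negative difference. Among them are the lowest value, that of entry 7, and the called entries 4 and 5. Entry 1 had 12.7, 16.6 and 23.8 CPM as the lowest, median and highest of the 6 chemotherapy samples, 12.4, 17.6, 43.7, 15.6 and 26.8 CPM in tumor libraries 6 to 10, and 65, 16.5, 50.8, 92.2 and 35.7 CPM in healthy libraries 1 to 5. Only healthy library 2 reached down into the chemotherapy range. Its difference was -1.58 ± 0.36 (log2 ± SE, adjusted p = 0.0271) in chemotherapy over healthy muscle. Entry 2 averaged 4.09 ± 1.12 CPM in chemotherapy, 6.67 ± 3.89 CPM in tumor and 14.5 ± 8.36 CPM in healthy samples, a difference of -1.87 ± 0.40 (log2 ± SE, adjusted p = 0.0261) for chemotherapy over healthy. Entry 5 averaged 0.871 ± 0.651 CPM in chemotherapy, 1.17 ± 0.393 CPM in tumor and 3.38 ± 2.0 CPM in healthy samples, and its difference was -1.89 ± 0.48 (log2 ± SE, adjusted p = 0.029). In tumor over healthy muscle the differences were -1.17 ± 0.37 (log2 ± SE, adjusted p = 0.216) for entry 1 and -1.59 ± 0.49 (log2 ± SE, adjusted p = 0.211) for entry 5, neither called.

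Vault RNA, the RNA of the vault ribonucleoprotein particle, had one of the lowest fold changes. It was counted at 6.85, 10.1 and 20.3 CPM as the lowest, median and highest of the 6 chemotherapy samples, 10.01, 12.8, 55.1, 8.73 and 23 CPM in tumor libraries 6 to 10, and 73.3, 15.7, 51.3, 77.1 and 43.6 CPM in healthy libraries 1 to 5. Healthy library 2 was again within the chemotherapy range, and tumor library 8 reached the level of healthy libraries 3 and 5. Its difference was -2.1 ± 0.46 (log2 ± SE, adjusted p = 0.0261) in chemotherapy over healthy muscle. In the VM samples alone, where the healthy group is the single library 5, it was -2.08 and was not called (adjusted p = 0.595 by edgeR). Without healthy libraries 1, 3 and 4 it was -1.30. Per 1000 counts of Rpph1, vault RNA had 1.73 to 3.37 counts in chemotherapy, 2.35 to 4.91 in tumor and 3.69 to 5.43 in healthy samples. Chemotherapy and healthy samples did not overlap in this ratio, healthy library 2 included, and tumor samples spanned both. This ratio was chosen after the values were seen and was given no test.

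The Y RNAs, which bind the Ro60 protein, did not pass the test in any comparison. Y_RNA entry 1 was measured at 93.2, 114 and 142 CPM as the lowest, median and highest of the 6 chemotherapy samples, 87.4, 107, 105, 130.1 and 82.8 CPM in tumor libraries 6 to 10, and 148, 141, 177, 241 and 103 CPM in healthy libraries 1 to 5. All 3 groups overlapped, and healthy library 4 stood highest. Its difference was -0.48 ± 0.18 (log2 ± SE, adjusted p = 0.074) in chemotherapy and -0.66 ± 0.19 (log2 ± SE, adjusted p = 0.211) in tumor samples, both over healthy. Entry 2 averaged 17.8 ± 3.63 CPM in chemotherapy, 12.7 ± 3.44 CPM in tumor and 19.1 ± 8.59 CPM in healthy samples. Relative to Rpph1, entry 1 had 14.8 to 41.5 counts per 1000 in chemotherapy, 9.33 to 35 in tumor and 8.56 to 39.7 in healthy samples, with healthy library 2 at the top of its group. Terc, the telomerase template RNA, was barely counted, at 0.838 ± 0.648 CPM in chemotherapy, 1.75 ± 0.801 CPM in tumor and 1.86 ± 1.49 CPM in healthy samples. Its difference was -1.23 ± 0.56 (log2 ± SE, adjusted p = 0.122) in chemotherapy over healthy muscle. Terc passed the count rule only with its healthy counts, which can favour a negative difference.

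The single rRNA entry, 5S_rRNA, had the lowest called fold change. It gave 4.54, 9.29 and 15 CPM as the lowest, median and highest of the 6 chemotherapy samples, 7.97, 13.6, 67.1, 7.62 and 22.5 CPM in tumor libraries 6 to 10, and 64, 9.88, 59.8, 59.96 and 35.1 CPM in healthy libraries 1 to 5. Healthy libraries 1, 3, 4 and 5 were above every chemotherapy sample, healthy library 2 was inside their range, and tumor library 8 was the highest sample of all. The difference was -2.3 ± 0.54 (log2 ± SE, adjusted p = 0.0271) in chemotherapy over healthy muscle and -1.36 ± 0.54 (log2 ± SE, adjusted p = 0.778) in chemotherapy over tumor muscle. The kit removes ribosomal RNA, so this count is what the depletion left, and its part in the difference was not tested.

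**Figure D4:**
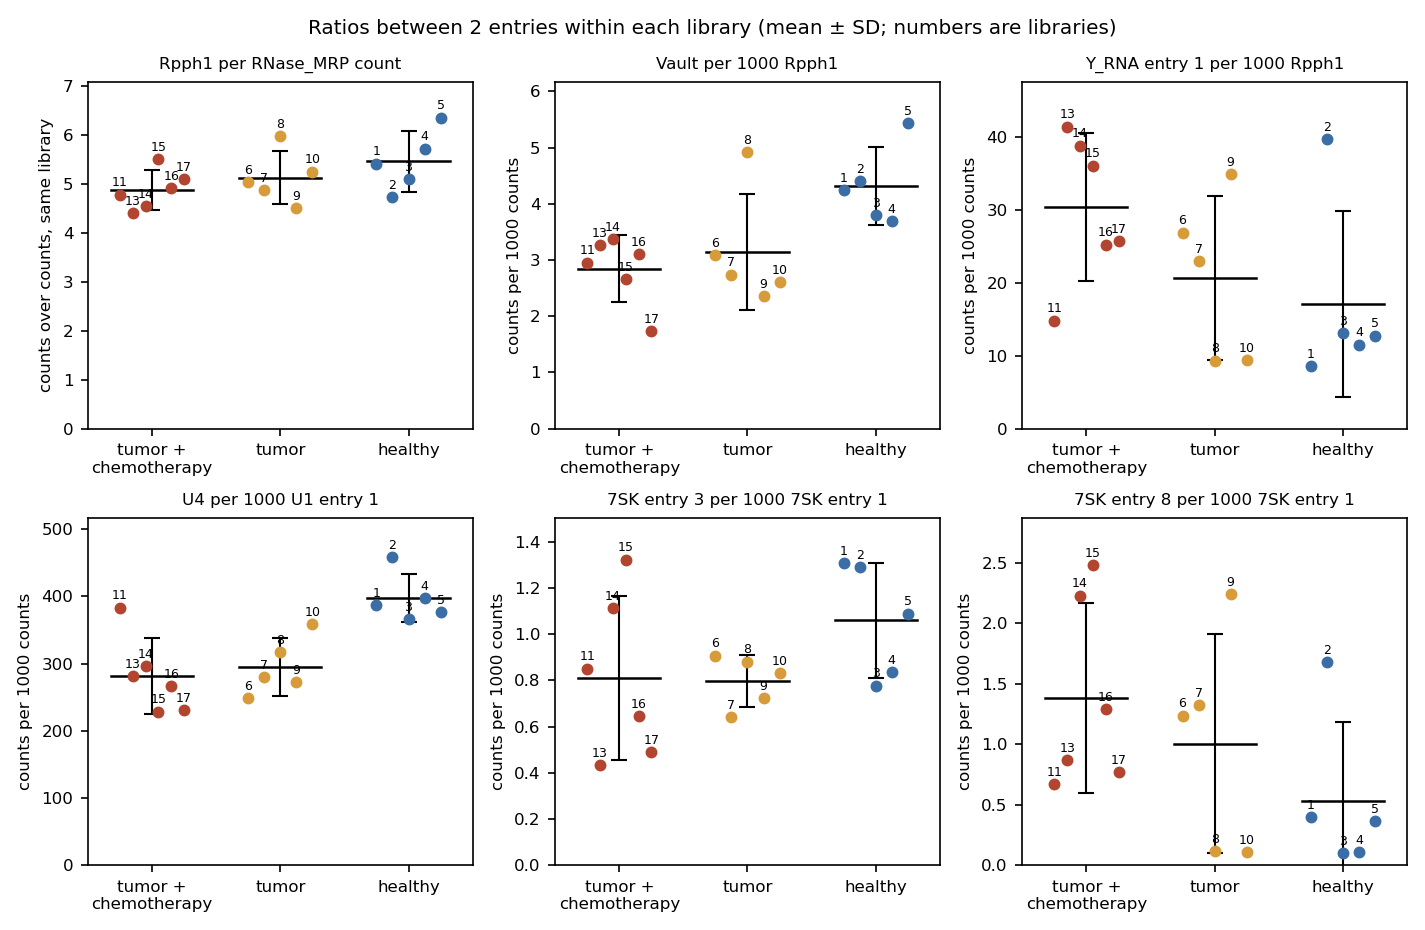
Counts of one entry over counts of another in the same library, which no scaling of libraries can move, for 6 pairs; points are samples with their library number, lines and bars are the mean ± SD. The Rpph1 to RNase_MRP ratio stays between 4.40 and 6.35, vault RNA per 1000 Rpph1 counts is below 3.38 in every chemotherapy sample and above 3.68 in every healthy one, and 7SK entry 8 varies most.

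Among the spliceosomal RNAs, 1 of 7 tested entries was called lower in chemotherapy than in healthy muscle, U4, and all 7 had negative fold changes, from -1.11 to -0.27. U2 and U1 entries 2 to 5, which give both ends of that range, passed the count rule only with their healthy counts. That can favour a negative difference. U4, which pairs with U6 in the spliceosome, was measured at 32.1, 47.3 and 79 CPM as the lowest, median and highest of the 6 chemotherapy samples, 47.5, 58, 100.1, 48.3 and 79.4 CPM in tumor libraries 6 to 10, and 135, 70.3, 77.7, 136 and 78.7 CPM in healthy libraries 1 to 5. The chemotherapy samples were low apart from library 11, which lay among the healthy ones. Its difference was -0.97 ± 0.25 (log2 ± SE, adjusted p = 0.0289) in chemotherapy over healthy muscle. U1 entry 1, from the RNA that recognises splice donor sites, averaged 177 ± 24.6 CPM in chemotherapy, 222 ± 54.6 CPM in tumor and 253 ± 87.6 CPM in healthy samples. It differed by -0.52 ± 0.20 (log2 ± SE, adjusted p = 0.0716) in chemotherapy over healthy muscle and was not called. U1 entry 2 averaged 1.9 ± 1.01 CPM in chemotherapy, 1.78 ± 0.962 CPM in tumor and 4.4 ± 2.37 CPM in healthy samples, with a difference of -1.11 ± 0.42 (log2 ± SE, adjusted p = 0.0684). Per 1000 counts of U1 entry 1, U4 had 228 to 383 counts in chemotherapy, 249 to 359 in tumor and 366 to 458 in healthy samples. Tumor and healthy samples did not overlap in this ratio, and library 11 was the only chemotherapy sample inside the healthy range; it was chosen after the values were seen, with no test. U2, which binds the branch point, and U1 entries 3 to 5 were not called.

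Of 12 box H/ACA entries, 4 were called lower in chemotherapy than in healthy muscle and all 12 had negative fold changes, from -1.40 to -0.39 (median -0.92). Among the 12, SNORA66 passed the count rule only with its healthy counts, which can favour a negative difference. SNORA73 entry 1, from the family known as U17, which acts in ribosomal RNA precursor cleavage, was measured at 42, 64.5 and 78.5 CPM as the lowest, median and highest of the 6 chemotherapy samples, 51.4, 72.8, 131, 67.2 and 89.9 CPM in tumor libraries 6 to 10, and 171, 71.9, 131, 157 and 78.2 CPM in healthy libraries 1 to 5. Healthy libraries 1, 3 and 4 stood above every chemotherapy sample, and healthy libraries 2 and 5 lay among them. Its difference was -0.93 ± 0.25 (log2 ± SE, adjusted p = 0.0308) in chemotherapy over healthy muscle. SNORA63 had the smallest called difference, -0.58 ± 0.18 (log2 ± SE, adjusted p = 0.0402). It was counted at 24.9, 27.5 and 38 CPM as the lowest, median and highest of the 6 chemotherapy samples, 26.6, 33, 51.9, 33 and 49.6 CPM in tumor libraries 6 to 10, and 50.2, 40.9, 40.3, 53.3 and 40.3 CPM in healthy libraries 1 to 5. In SNORA63 every healthy sample, library 2 included, was above every chemotherapy sample, by a small margin. SNORA74 entry 1 averaged 52.9 ± 13 CPM in chemotherapy, 62.6 ± 13.5 CPM in tumor and 83.3 ± 29.9 CPM in healthy samples, a difference of -0.65 ± 0.22 (log2 ± SE, adjusted p = 0.0504), just outside the threshold. SNORA73 entry 2 and SNORA71 entry 1, named here because they passed the test, were the other called entries, with differences of -1.16 and -1.27. SNORA73 entry 3 had 161 counts in library 11 and 586 in library 12, although 24 of the 26 members with at least 100 counts in those libraries together differed by less than 1.5 times between them.

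Of 5 box C/D entries, U8 included, 1 was called lower in chemotherapy than in healthy muscle. This was SNORD22, at 6.56 ± 2.26 CPM in chemotherapy, 11.7 ± 6.34 CPM in tumor and 16.8 ± 7.65 CPM in healthy samples, with a difference of -1.32 ± 0.36 (log2 ± SE, adjusted p = 0.0309). In chemotherapy over tumor muscle SNORD22 differed by -0.79 ± 0.36 (log2 ± SE, adjusted p = 0.778), and SNORA71 entry 1 by -1.0 ± 0.42 (log2 ± SE, adjusted p = 0.778), the members with the smallest p there beside 5S_rRNA. U8, needed for maturation of the large-subunit ribosomal RNAs, averaged 1.39 ± 0.816 CPM in chemotherapy, 1.38 ± 1.28 CPM in tumor and 1.9 ± 0.898 CPM in healthy samples and was not called. It passed the count rule only with its healthy counts. Of 7 snoRNAs known only by a clone name, whose targets the files do not give, 4 were called lower. Among these, AC105648.11, named after its values were seen, passed the count rule only with its healthy counts. AC114512.2 averaged 55.9 ± 17.5 CPM in chemotherapy, 71 ± 27.2 CPM in tumor and 104 ± 29.5 CPM in healthy samples, a difference of -0.89 ± 0.25 (log2 ± SE, adjusted p = 0.0333) in chemotherapy over healthy muscle. AC129138.1 averaged 36.1 ± 7.98 CPM in chemotherapy, 43.4 ± 15.9 CPM in tumor and 76.5 ± 32.9 CPM in healthy samples, and differed by -1.08 ± 0.27 (log2 ± SE, adjusted p = 0.0289). Of the 3 scaRNAs, 2 were called lower. AABR07065438.2 was measured at 106, 115 and 169.8 CPM as the lowest, median and highest of the 6 chemotherapy samples, 99.1, 129, 310.1, 111 and 279 CPM in tumor libraries 6 to 10, and 427, 119.7, 429, 539 and 219 CPM in healthy libraries 1 to 5. Again healthy library 2 lay in the chemotherapy range and tumor libraries 8 and 10 were high. Its difference was -1.47 ± 0.35 (log2 ± SE, adjusted p = 0.0271), and that of AABR07032532.2 was -1.51 ± 0.41 (log2 ± SE, adjusted p = 0.0309), both in chemotherapy over healthy muscle. AABR07032532.1 differed by -1.47 ± 0.58 (log2 ± SE, adjusted p = 0.0792).

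In chemotherapy over healthy muscle, 4 entries had positive fold changes, none of them called. They are named after their values were seen. SNORD24, a box C/D guide, had 1.37, 2.82 and 3.43 CPM as the lowest, median and highest of the 6 chemotherapy samples, 1.87, 2.19, 0.95, 2.54 and 1.56 CPM in tumor libraries 6 to 10, and 0.378, 2.2, 0, 0.945 and 1.11 CPM in healthy libraries 1 to 5. Healthy library 2 lay within the chemotherapy range, below its median, and 1 healthy sample had no count. Its difference was 1.56 ± 0.55 (log2 ± SE, adjusted p = 0.0585), and with total-count scaling 1.69 (adjusted p = 0.0459 by edgeR). AABR07065593.1 had 2.51 ± 1.22 CPM in chemotherapy, 1.89 ± 1.03 CPM in tumor and 1.15 ± 0.48 CPM in healthy samples, a difference of 1.09 ± 0.52 (log2 ± SE, adjusted p = 0.134). 7SK entries 8 and 9 differed by 0.74 and 0.39. SNORD24 had the lowest count sum of all members.

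Some snoRNA families could be set beside the gene that holds them in RefSeq's GRCr8 annotation, matched by family name, although the table does not say from which copy an entry comes. Rpl5, a ribosomal protein gene that holds Snora66, rose in chemotherapy over healthy muscle by 1.44 ± 0.31 (log2 ± SE, adjusted p = 0.0261), at 458 ± 83.4 CPM in chemotherapy, 309.6 ± 119 CPM in tumor and 169 ± 90.4 CPM in healthy samples. SNORA66 itself averaged 1.45 ± 0.409 CPM in chemotherapy, 2.41 ± 0.983 CPM in tumor and 2.97 ± 1.05 CPM in healthy samples and differed by -0.96 ± 0.35 (log2 ± SE, adjusted p = 0.0623), in the opposite direction. It passed the count rule only with its healthy counts, which can favour a negative difference. Matr3, which encodes a nuclear matrix protein and holds Snora74a, rose by 0.97 ± 0.26 (log2 ± SE, adjusted p = 0.0314), against -0.65 for SNORA74 entry 1. Rps3, which holds both Snord15 genes, differed by 0.12 ± 0.12 (log2 ± SE, adjusted p = 0.486), and SNORD15 entry 1 by -0.61 ± 0.22 (log2 ± SE, adjusted p = 0.0633). Rpsa, which holds a Snora62 and a Snora73b gene, differed by -0.16 ± 0.14 (log2 ± SE, adjusted p = 0.424), and SNORA62 by -1.17 ± 0.40 (log2 ± SE, adjusted p = 0.0527). Rpl7a, which holds Snord24, has 2 entries of that name. The 1 examined is listed at 0 in every sample, and no value of the other is given here, so nothing is set beside SNORD24. Healthy libraries 1, 3 and 4 had the 3 lowest Rpl5 and Matr3 levels of the group. These pairs were chosen after the values were seen.

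**Figure D5:**
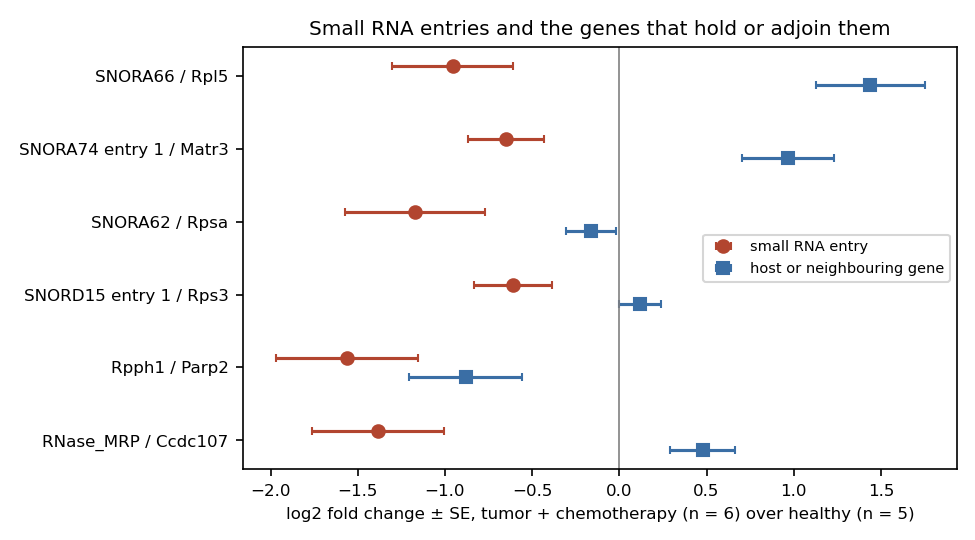
Log2 fold change with SE (x axis) in chemotherapy (n = 6) over healthy samples (n = 5) for 6 small RNA entries (circles) and for the gene that holds or adjoins each (squares). Rpl5 and Matr3 lie above 0 while the snoRNA entries of their families lie below it.

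The proteins that work with these RNAs were looked at as lists, in chemotherapy over healthy muscle, beside the 7.30% of all genes called higher and 6.41% called lower. Of 6 SRP proteins tested, 4 rose and none fell, with a median difference of 0.94. Srp9 averaged 24.2 ± 5.08 CPM in chemotherapy and 10.3 ± 3.75 CPM in healthy samples, a difference of 1.27 ± 0.28 (log2 ± SE, adjusted p = 0.0261), and Srp14, its partner in binding the Alu end of the RNA, 47.3 ± 8.92 CPM in chemotherapy and 24.2 ± 8.86 CPM in healthy samples, a difference of 0.99 ± 0.23 (log2 ± SE, adjusted p = 0.0262). The SRP RNA entries differed in the opposite direction. Of 2 vault proteins tested, Tep1, which telomerase shares, fell, at -0.68 ± 0.21 (log2 ± SE, adjusted p = 0.0415), and Mvp, the major vault protein, differed by -0.40 ± 0.17 (log2 ± SE, adjusted p = 0.0927). Of 10 RNase P and MRP proteins 1 rose, Pop4, at 1.22 ± 0.36 (log2 ± SE, adjusted p = 0.0366), and Rpp30 had 0.84 ± 0.31 (log2 ± SE, adjusted p = 0.0645). Of 6 tested 7SK partners 2 rose: Larp7, which binds the RNA's end, at 1.08 ± 0.32 (log2 ± SE, adjusted p = 0.0369), and Ccnt2, a cyclin of P-TEFb, at 0.72 ± 0.24 (log2 ± SE, adjusted p = 0.049). Ssb, the La protein that binds new RNA polymerase III transcripts, rose at 1.46 ± 0.41 (log2 ± SE, adjusted p = 0.0337), and Ro60, the Y RNA partner, had 0.42 ± 0.21 (log2 ± SE, adjusted p = 0.147).

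Of 27 RNA polymerase III genes tested 4 rose and 1 fell, with a median of 0.12. Snapc5, a subunit of the small nuclear RNA activating complex, averaged 10.1 ± 3.37 CPM in chemotherapy and 3.4 ± 2.04 CPM in healthy samples, a difference of 1.64 ± 0.46 (log2 ± SE, adjusted p = 0.0338), and Polr3gl, a polymerase subunit, had 0.80 ± 0.24 (log2 ± SE, adjusted p = 0.0395). None of 13 snoRNP proteins was called by edgeR (1 higher and 1 lower at an unadjusted p below 0.05), and those with the smallest p were Nop58, a box C/D core protein, at 0.81 ± 0.27 (log2 ± SE, adjusted p = 0.0502) and Rrp9 at -0.50 ± 0.20 (log2 ± SE, adjusted p = 0.0863). Of 31 spliceosomal snRNP proteins 3 rose and 2 fell, among them Prpf8, the core protein of the U5 particle, which fell at -0.63 ± 0.15 (log2 ± SE, adjusted p = 0.0276), and Snrnp35, which rose at 0.50 ± 0.14 (log2 ± SE, adjusted p = 0.0308). Of 25 Integrator, exosome and cap-processing genes 2 rose and 2 fell. Phax, the snRNA export adaptor, rose at 0.72 ± 0.18 (log2 ± SE, adjusted p = 0.0279), and Exosc10, a nuclear exosome nuclease, fell at -0.47 ± 0.12 (log2 ± SE, adjusted p = 0.0289). Of 54 snoRNA host genes tested 14 rose and 1 fell (median 0.30), led by Rpl21 at 1.21 ± 0.25 (log2 ± SE, adjusted p = 0.0261). None of the genes on these lists was called in tumor over healthy or in chemotherapy over tumor muscle, where 0% of all genes were. As for the RNAs, 0 of all genes were called in either direction once healthy libraries 1, 3 and 4 were left out or suffix entered the fit.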

How the data were processed

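The authors deposited raw counts of reads per gene, with no normalisation, for 17 rat gastrocnemius libraries. Per the labels' protocols these were stranded total RNA libraries from which ribosomal RNA had been removed. Tools listed in the submitters' processing notes are Bowtie2, TopHat2 2.0.10, Trim Galore 0.4.1, FastQC 0.11.4 and CASAVA 1.9. Build, annotation, counting program and use of strand: not given in the sources used here. Short RNAs with several near-identical genes can lose or split reads at alignment and counting, so their counts rest on those unknown settings. Entries without a gene name, 0.102% to 0.373% of counts, stayed out of library sizes and tests. In 4 cells the deposited value is rounded to exponent form.

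Totals ran from 3023899 to 15777909 counts per library. Libraries 11 and 12 gave a chi-square over degrees of freedom of 2.04, against 5.47 or more for other pairs within a group, and were summed into 1 sample. This left 6 chemotherapy, 5 tumor and 5 healthy samples. All entered 1 edgeR 4.0.16 model (R 4.3.3) with 1 mean per group, TMM scaling, filterByExpr (minimum count 10) and robust quasi-likelihood tests, with the Benjamini-Hochberg adjustment over 11856 genes. The SE is the size of the log2 fold change over the square root of F. Of the 61 members, 60 passed the filter. Levels are CPM, as mean ± SD. The test was checked on simulated counts. Alternatives were DESeq2 size factors, total counts, scaling without the members, no filter, DESeq2 1.42.0, limma-voom (limma 3.58.1), 17 libraries, suffix as a term, 1 surrogate variable (sva 3.50.0) and leaving out samples. Restriction to VM samples was added after seeing the data.

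The members, the protein and host gene lists and the tests were chosen with earlier results of these data known. Genes are named by a rule: Rpph1, vault RNA and Terc by name, the 3 entries with the most counts in each biotype, the 5 lowest and the 5 highest called fold changes (or the 3 smallest p) in each comparison, and the 2 smallest p in each list. Others are said to be chosen later. RefSeq promoter windows are from GRCr8, and only 2 of the 32 names equal a RefSeq symbol.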

Additional observations from a re-analysis of the deposited data

Results flagged for a closer look

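The share of counts on the rRNA entry, 5S_rRNA, in tumor library 8 lay far from the other tumor samples. It was 0.00651% there, against 0.000774% to 0.00218% in the other 4, and the gap was 0.755 of the group's range. Of 93 groups of values examined in this way, 1 stood out, and chance gives about 1 in 20.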

How the results depend on the processing

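No paired analysis was possible because the groups share no replicate numbers. The count of members called lower in chemotherapy over healthy muscle, 24, was 0 with suffix as a term, 0 with 1 surrogate variable, 0 without healthy libraries 1, 3 and 4 and 0 in the VM samples alone, and ranged from 0 to 43 when 1 sample was left out. It was 24 with DESeq2 size factors, 22 with total counts, 23 with scaling that left out the members, 17 with no filter, 33 with DESeq2, 26 with limma-voom and 22 with 17 libraries. The shares of all genes called lower are not given for these fits, so these counts alone do not set the members apart from all genes. At an unadjusted p below 0.05, 39 members were lower with total counts (9.00% of all genes) and 44 with no filter (11.5%). The other fits of this row each had 44 lower (16.4% to 17.3% of all genes). Leaving out 1 sample gave 30 to 46 members lower at that threshold (12.4% to 21.7% of all genes). Members called higher in chemotherapy over healthy muscle numbered 1 with total counts, 1 with DESeq2, 1 with limma-voom, and 0 to 2 when 1 sample was left out. The shares of all genes called higher are not given for these fits either. Tumor over healthy, leaving out 1 sample gave 0 to 6 members called lower. At an unadjusted p below 0.05, 9 to 34 members were lower in those fits (5.27% to 13.7% of all genes). The cause was not tested. Total-count scaling moved the median of all genes to 0.12 on the log2 scale, and the members' median to -1.01.

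Without Rpph1 the share of counts was 0.432% in chemotherapy, 0.610% in tumor and 0.982% in healthy samples. Of 754 alternative values of 28 named fold changes, 9 changed sign. With 1 surrogate variable Rpph1 had 0.026, Terc 0.22, RNase_MRP 0.10, U1 entry 1 0.071, SNORA74 entry 1 0.082 and AABR07032532.1 0.17. Terc had 0.016 without healthy libraries 1, 3 and 4, and Y_RNA entry 1 in the VM samples had 0.22 in chemotherapy and 5.2e-04 in tumor over healthy muscle. Entries of 1 to 5 CPM rest on few counts in the shallower libraries.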

Other observations

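Within the chemotherapy group, library 11 was the highest sample in 30 of the 61 entries and library 17 in 13. Within the tumor group, library 8 was the highest in 40 and library 10 in 12. Within the healthy group, library 4 was the highest in 42, library 1 in 14 and library 3 in 0. The single healthy library with the VM suffix lay above every VM chemotherapy sample in 35 of the 60 entries tested (23.0% of all genes tested), within their range in 22 (53.4%) and below it in 3 (23.6%). Set against the 5 tumor libraries, it lay above all of them in 5 entries (12.3%), within their range in 54 (76.8%) and below it in 1 (10.9%).

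Y_RNA entry 1 had 738 counts in library 11 and 1344 in library 12, which is 1.64 times more after scaling by library total, while 7SK entry 1 had 1.03 times more in library 12.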
